A study of Mus musculus with 933 samples.

Results

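The step from the 4-cell to the 8-cell stage was examined in single mouse embryos made with sperm of the cauda epididymis, the downstream end of the epididymis where sperm are stored. The embryos are 32 labelled 4-cell (4C) and 25 labelled 8-cell (8C), chosen by label alone, so 57 of the 933 embryos of the series. All were of strain FVB, came from intracytoplasmic sperm injection (ICSI, a sperm placed directly into an egg), grew in KSOM medium and received no injected RNA. The 4C and 8C embryos therefore share the sperm source and the absence of injection and differ in the labelled stage. The growth and collection notes give 28 h after ICSI for every embryo, which cannot hold for both stages, and the stage labels were used. RNA was read by Smart-seq2, a method that copies polyadenylated transcripts of a whole embryo.

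Between these stages the mouse embryo divides and prepares for compaction, when its blastomeres flatten against each other through E-cadherin and the catenins and gain an outward-facing apical pole. Outer cells later become trophectoderm, a transporting epithelium marked by keratins and by the factors CDX2 and GATA3, and inner cells become the inner cell mass, which keeps OCT4 (Pou5f1) and NANOG. Angiomotin (Amot) and the Hippo kinases keep YAP out of the nucleus of inner cells. Transcripts stored in the oocyte continue to be lost while the embryo's own genome is read.

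Each embryo has a session, a number code in its sample description. The sessions are called A to G here, and the labels do not say what the codes stand for. The 4C embryos come from sessions A, B, C and D with 8 embryos each. The 8C embryos come from session E with 3, session F with 17 and session G with 5. No session holds both stages, and the stages were deposited in separate tables, so stage, session and table cannot be told apart. Values are TPM, each transcript's length-corrected share of a library scaled to a fixed sum. The sequencing depth is unknown, since TPM keep no counts. The labels do not say whether embryos came from separate mothers, so p-values measure the spread between these embryos. Between 8907 and 10966 genes reached 1 TPM in the 4C embryos and between 9434 and 11450 in the 8C embryos. The means were 10233 ± 444 (SD, n = 32) and 10391 ± 564 (SD, n = 25), and the difference of 157.8 genes did not pass a two-sided permutation test (p = 0.246).

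By expression profile all but 1 of the embryos lay closest to the stage of their label. Over 7509 genes whose mean reached 10 TPM in 1 stage or both, all 32 of the 4C embryos were closer to the median 4C profile than to the 8C profile, with Pearson's r on log2(TPM + 1) of 0.876 to 0.959 against 0.785 to 0.914. Likewise 24 of the 8C embryos were closer to the median 8C profile, with r of 0.835 to 0.951 against 0.827 to 0.902. The exception was 8C embryo 23 of session F, with r = 0.216 to the 8C profile, 0.244 to the 4C profile and 0.595 to the median of 2-cell embryos at 28 h. It held 63596 TPM of listed oocyte transcripts, where the other 8C embryos held 7515 to 13379, and 31485 TPM of ribosomal protein transcripts, where the others held 106633 to 162857. Its Btg4, an oocyte gene that drives decay of maternal mRNA, stood at 9155 TPM. The fit was run with and without this embryo.

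**Figure D1:**
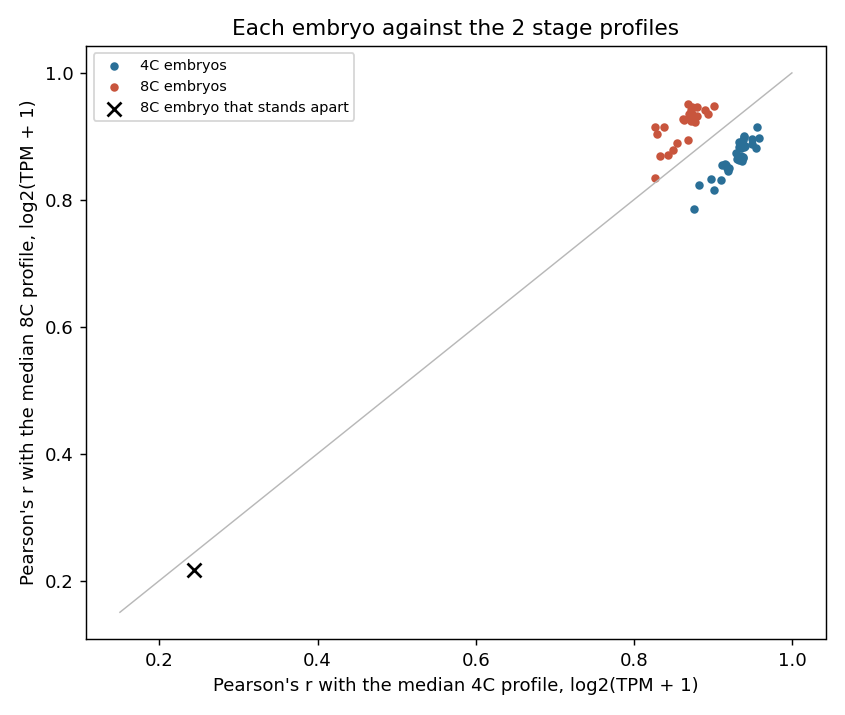
Pearson's r of each embryo's log2(TPM + 1) over 7509 genes with the median 4C profile (x axis) and the median 8C profile (y axis), leaving the embryo itself out of the median, with the line of equal r. The 4C embryos lie below the line and 24 of the 8C embryos above it, and 8C embryo 23 lies far from both, at r = 0.244 and 0.216.

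The comparison asks which transcripts change in share between the stages. Of 11923 genes tested with limma (1 TPM or more in at least 13 embryos), 775 were higher at 8C (6.5%) and 686 lower (5.75%) at an adjusted p under 0.05 and a fitted fold change of at least 2. Such a gene is called higher or lower below, and a gene that rose or fell is one so called. Without embryo 23 the counts were 819 (6.81%) and 692 (5.76%) of 12018. Between embryos of the same stage far fewer genes were called. A second cohort of 23 cauda 4C embryos from another table differed from the first in 80 of the same 11923 genes (0.671%), and the third, of 33, differed in 20 (0.168%). The second cohort's table is that of an experiment with injected microRNA and tRNA fragments. The third cohort's table is that of a comparison with testis sperm. Of the genes called higher, 661 had all 3 session means at 8C above all 4 session means at 4C, and of those called lower 621 had them below. The same embryos chose these genes, so this separation is in part built into the choice and is no separate support. Against the second 4C cohort, 771 of the 775 and 681 of the 686 kept their direction, and against the third 774 and 686. These cohorts share no embryo with the first, but the 8C embryos are the same.

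Transcripts of the genes called higher were longer, with a median of 3850 bases against 2683 over the tested genes and 2159 for those called lower. Their GC content was also higher, at 53.5% against 50.2% and 47.1%. In 4 groups of equal size by transcript length the median log2 change was -0.19, -0.19, -0.06 and 0.15 from the shortest to the longest. For the second against the first 4C cohort the same medians were 0.07, 0, -0.05 and -0.09, and for the third 0.03, 0.03, 0.02 and -0.01. The part of length in the change with stage was not tested. The median log2 change over all tested genes was -0.09.

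**Figure D2:**
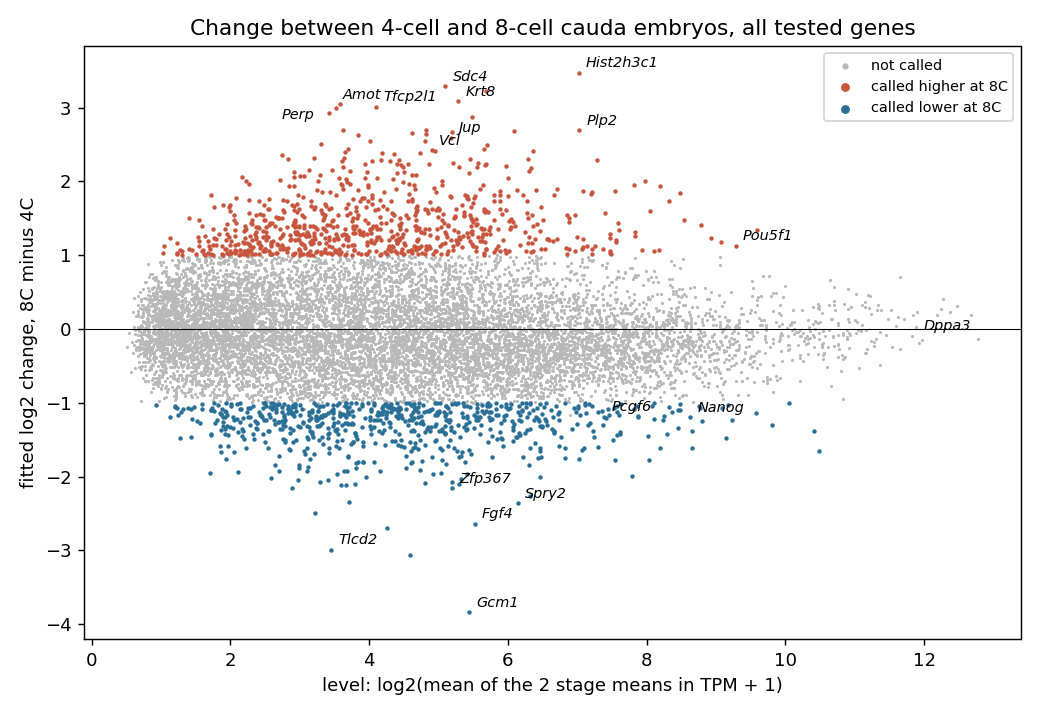
Fitted log2 change from 4C to 8C (y axis) against level, log2 of the mean of both stage means in TPM plus 1 (x axis), for 11923 genes. Red points are the 775 genes called higher, blue points the 686 called lower and grey points the rest, and Gcm1 at -3.84 and Hist2h3c1 at 3.47 lie farthest out.

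Genes of epithelium and trophectoderm were among the largest rises. Krt8, a keratin of simple epithelia (chromosome 15, 101996711 to 102004342, mm10), ran from 0 to 72.3 TPM at 4C with a median of 5.95, and from 7.05 to 155 at 8C with a median of 54.6. All 25 of the 8C embryos lay above the 4C median, and 9 lay above the highest 4C embryo. The fitted change was 8.53-fold (log2 3.09 ± 0.44 SE, adjusted p = 6.17e-08). Its partner Krt18 rose from 5.27 ± 6.73 (SD, n = 32) to 24.4 ± 25.6 TPM (SD, n = 25), 3.86-fold, but was not called against the second 4C cohort, which had 12.5 TPM. Sdc4, a heparan sulfate proteoglycan of the cell surface, had medians of 1.07 and 28.3 TPM and rose 9.75-fold (log2 3.29 ± 0.51, adjusted p = 5.67e-07). It was listed at 0 in 13 of the 4C and 2 of the 8C embryos, and the groups overlapped widely, with maxima of 150 and 285 TPM. Perp, a desmosomal protein and p53 target, was listed at 0 in 26 of 32 4C embryos and had a median of 11.6 TPM at 8C.

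Of the transcription factors of trophectoderm, Cdx2 rose from a 4C median of 0.775 TPM (0 to 22.9) to 7.41 (0 to 56.5), 3.63-fold (log2 1.86 ± 0.40, adjusted p = 0.000195). Its 8C session means ran from 4.16 to 18 TPM, and the lowest of these lay under the highest 4C session mean of 5.25. Without session F Cdx2 was not called. Gata3 rose 2.12-fold, from 2.32 ± 2.87 to 6.93 ± 7.27 TPM, and 19 of 25 8C embryos lay above its 4C median. Gata3 was not called without session F or C or against the second 4C cohort. Tead4, the partner of YAP needed for trophectoderm, was already at 242 ± 68.3 TPM at 4C and 255 ± 95.7 at 8C and did not pass (log2 -0.07 ± 0.20, adjusted p = 0.816). Tfap2c, at 138 ± 34.4 and 111 ± 32.5 TPM, had an adjusted p of 0.0419 and a log2 change of -0.35, below the fold required. Over the whole trophectoderm list, 21 of 34 genes were tested, 6 rose and Tspan8, a tetraspanin, fell, and without embryo 23 the counts were 7 and 1. The list's median log2 change was 0.60, against -0.09 over all tested genes, of which 6.5% rose and 5.75% fell.

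The promoters of 7 of the genes that moved most were searched for 4 motifs, and the 3 that hold a match are shown. Those of Sdc4, Amot, Gcm1 and Fgf4 hold none of the 4. They run from 250 bases before to 50 bases after a RefSeq start (build GRCm38.p6, the assembly of mm10), 5′ to 3′ on the gene's strand. Capitals mark TATAAA (the TATA box) and GCCNNNGGC (the AP-2 family's palindrome) on either strand, and in Krt8 the matches on both strands overlap. The promoters lie at chr15:102004293-102004592 on the minus strand for Krt8, at chr1:118627695-118627994 on the plus strand for Tfcp2l1 and at chr14:105896770-105897069 on the minus strand for Spry2, which fell.
Krt8: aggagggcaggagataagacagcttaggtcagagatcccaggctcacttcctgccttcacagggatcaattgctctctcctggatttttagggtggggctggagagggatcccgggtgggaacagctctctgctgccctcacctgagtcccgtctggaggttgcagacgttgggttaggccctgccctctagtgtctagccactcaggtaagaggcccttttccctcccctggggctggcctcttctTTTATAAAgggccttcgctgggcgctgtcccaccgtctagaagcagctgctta
Tfcp2l1: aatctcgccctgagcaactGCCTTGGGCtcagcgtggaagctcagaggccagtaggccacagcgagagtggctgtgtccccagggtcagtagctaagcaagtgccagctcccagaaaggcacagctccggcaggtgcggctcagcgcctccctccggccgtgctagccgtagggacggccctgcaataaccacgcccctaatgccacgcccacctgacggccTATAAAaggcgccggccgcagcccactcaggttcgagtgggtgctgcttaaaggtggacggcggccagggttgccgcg
Spry2: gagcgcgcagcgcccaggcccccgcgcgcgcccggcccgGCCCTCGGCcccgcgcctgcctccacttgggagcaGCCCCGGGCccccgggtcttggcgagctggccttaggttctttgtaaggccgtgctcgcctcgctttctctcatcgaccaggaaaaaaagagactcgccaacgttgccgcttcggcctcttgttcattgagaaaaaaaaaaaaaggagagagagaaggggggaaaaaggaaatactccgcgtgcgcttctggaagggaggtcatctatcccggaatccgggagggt
Over all genes with a promoter the shares lay near each other. TATAAA was in 6.76% of the 636 promoters matched to genes called higher, 7.9% of 557 of genes called lower and 7.22% of 9570 of tested genes. GCCNNNGGC was in 25.8%, 21% and 24.6%, GGAATG (a TEAD motif) in 13.4%, 11.1% and 11.9%, and CAAGGTCA (a motif of the estrogen-related receptors) in 1.1%, 0.898% and 1.15%.

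**Figure D3:**
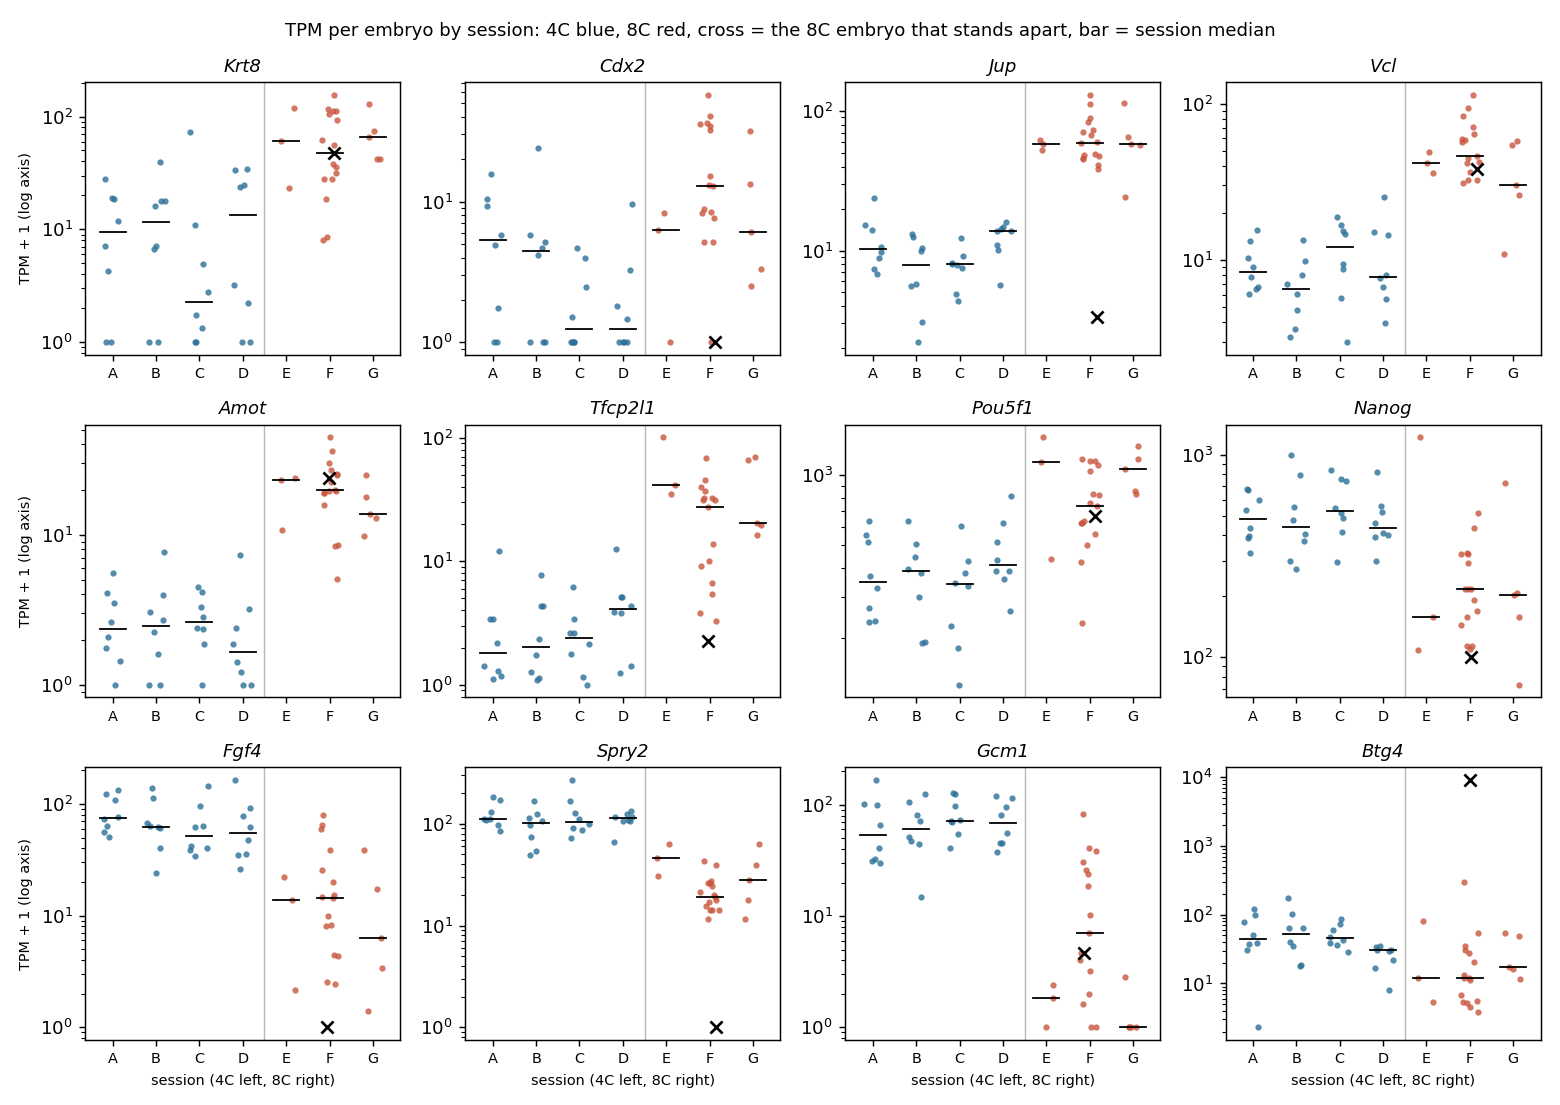
TPM + 1 on a log axis for 12 genes in every embryo, by session (x axis), with 4C sessions in blue, 8C sessions in red, session medians as bars and 8C embryo 23 as a cross. Jup, Vcl and Amot separate the stages in all but 1 or a few embryos, Krt8 and Cdx2 overlap, and Gcm1 keeps high values in some embryos of session F.

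Genes of cell contact rose in part. Of 43 tested genes of compaction, adhesion and polarity, 7 were called higher and 1 lower, and without embryo 23 these were 9 and 2. Over all tested genes 6.5% were called higher and 5.75% lower. Of 9 members of adherens junctions 4 were called higher, Jup, Vcl, Ctnnd1 and the nectin Pvrl2. Jup (plakoglobin, the catenin shared by adherens junctions and desmosomes) ran from 1.2 to 22.8 TPM at 4C with a median of 8.81 and from 2.36 to 130 at 8C with a median of 57.5. Every 8C embryo other than embryo 23 was above every 4C embryo, and the change was 6.01-fold (log2 2.59 ± 0.23, adjusted p = 4.72e-14). Vcl (vinculin, which links catenins to actin) had medians of 7.03 and 43.8 TPM and rose 5.34-fold (log2 2.42 ± 0.20, adjusted p = 6.01e-15), with 24 of 25 8C embryos above the 4C maximum of 24.3. Ctnnd1 (p120 catenin, which holds cadherins at the membrane) rose 3.87-fold, from 20.8 ± 11 to 76.7 ± 23.4 TPM. Pkp2, a plakophilin of desmosomes, rose 3.2-fold and was listed at 0 in 25 of 32 4C embryos.

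E-cadherin itself, Cdh1, had 43.1 ± 22 TPM at 4C and 69.2 ± 23 at 8C. Its log2 change of 0.89 ± 0.29 (adjusted p = 0.0133) fell short of the required fold, and without embryo 23, which held 4.84 TPM, it was called at 1.04. Ezr (ezrin, of the apical pole) was at 1.49 ± 1.82 and 1.88 ± 2.69 TPM, and Epcam and Cldn4 had log2 changes of -0.46 and 0.68 that did not pass. Among genes called at lower levels, Pard6b, a polarity protein of the PAR complex, rose from 4.54 to 13.7 TPM, and Rock1, a kinase of actomyosin contraction, fell by 1.43 on the log2 scale.

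In the Hippo pathway 4 of 14 kinases and scaffolds rose and none of the 6 tested transcription factors was called. Of 24 tested members of the list 6 rose and 1 fell, where 6.5% and 5.75% of all tested genes did. Amot, the angiomotin that holds YAP at junctions, had a 4C median of 1.36 TPM (0 to 6.71) and an 8C median of 18.4 (4.05 to 43.6). All but 1 of the 8C embryos lay above the 4C maximum, and the change was 7.93-fold (log2 2.99 ± 0.23, adjusted p = 1.42e-16). Stk4 (MST1, the upstream kinase) rose 3.34-fold and Mob1a (a cofactor of the LATS kinases) 2.92-fold, from 62.8 ± 19.3 to 185 ± 51.5 TPM. Yap1 was at medians of 28.5 and 24.4 TPM (log2 -0.04 ± 0.22, adjusted p = 0.921), and embryo 23 held 464. Of the 4 tested YAP targets, Cdx2 and Gata3 rose and Cyr61 fell by 1.41 on the log2 scale.

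Pluripotency genes changed in both directions. Of 27 tested, 6 were called higher and 5 lower, against 6.5% and 5.75% of all tested genes, with a median log2 change of -0.14. Tfcp2l1, a factor of naive pluripotency (chromosome 1, 118627923 to 118685168), rose 8.06-fold (log2 3.01 ± 0.33, adjusted p = 6.87e-11), from a median of 1.48 TPM (0 to 11.5) to 30.1 (1.26 to 100). In 18 of 25 8C embryos it exceeded the 4C maximum. Pou5f1 rose 2.19-fold, from 393 ± 160 to 852 ± 314 TPM (adjusted p = 1.09e-07), and 24 of 25 embryos were above the 4C median. Lin28a, which blocks let-7 maturation, rose 4.74-fold from a median of 13.6 to 55.1 TPM, and embryo 23 held the maximum of 555. Nanog went the other way. It ran from 270 to 993 TPM at 4C with a median of 480 and from 72.1 to 1217 at 8C with a median of 202, and fell 2.3-fold (log2 -1.20 ± 0.19, adjusted p = 8.14e-07). Of the 8C embryos 17 were below the 4C minimum, and 1 was above the 4C maximum. The factor Spic also fell, by 1.39 on the log2 scale, from 1904 ± 444 to 806 ± 353 TPM. Nanog was not called against the second or the third 4C cohort, where its means were 300 and 404 TPM, and Pou5f1 was not called against the third. Sox2 was listed at 0 in 28 of 32 and 24 of 25 embryos and was not tested, and Klf4, Gata6 and Fgfr2 had log2 changes of -0.57, 0.70 and 0.82 that fell short of the required fold.

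FGF signalling, by which inner cells later direct their neighbours toward primitive endoderm, had called members in both directions. Fgf4, the ligand, fell from a median of 62 TPM (22.9 to 164) to 12.8 (0 to 78.9), 6.25-fold (log2 -2.64 ± 0.33, adjusted p = 3.07e-09), with 19 of 25 8C embryos below the 4C minimum. Spry2, a feedback inhibitor induced by FGF signals, fell 5.14-fold (log2 -2.36 ± 0.23, adjusted p = 4.54e-13), from a median of 109 TPM (48.1 to 270) to 20.3 (0 to 62.1). All of the 8C embryos lay below its 4C median and 23 below its minimum. Spred2, a Sprouty-related inhibitor of the Ras and ERK pathway, rose 2.87-fold, from 2.2 ± 1.64 to 8.38 ± 4.92 TPM (log2 1.52, adjusted p = 1.67e-07). The receptor Fgfr3 rose 3.86-fold, from 13.8 ± 12.3 to 50.6 ± 25.3 TPM, and the adaptor Frs2 2.93-fold. Prdm14, a pluripotency factor that represses FGF receptors in embryonic stem cells, fell by 1.97 on the log2 scale. Of the 20 tested FGF genes 3 rose and 2 fell, where 6.5% and 5.75% of all tested genes did. Without embryo 23 the counts were 4 and 2. On the primitive endoderm list 10 of 21 genes were tested. Of these 4 rose, against 6.5% of all tested genes, and none fell. The 4 include Dab2, an endocytic adaptor, at 7.34 and 33 TPM, and its receptor partner Lrp2 at 0.576 and 5.36. The laminin chain Lamb1, at 4.4 and 12.3, is another. In 2-cell embryos at 28 h Dab2, Lrp2 and Lamb1 had 55.6, 0.0379 and 33.3 TPM. Of the list's 7 transcription factors 2 were tested, and neither was called.

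Among genes of at least 5 TPM at either stage, the largest fall was that of Gcm1 (chromosome 9, 78051958 to 78065624), a transcription factor of the placental labyrinth. It ran from 13.8 to 167 TPM at 4C with a median of 69.3, and from 0 to 81.1 at 8C with a median of 2.2. The fitted change was 14.3-fold (log2 -3.84 ± 0.39, adjusted p = 2.5e-12). Of the 8C embryos, 18 were below the 4C minimum and 7 were listed at 0. The 8C session means ran from 0.37 to 16.7 TPM, and the 4C session means from 66.6 to 81.7. The spread between 8C embryos of its log2 level was 2.12 (SD without embryo 23), against 0.79 at 4C. Zfp367 (a zinc finger factor) fell 4.45-fold, from 57.1 ± 19 to 14.3 ± 11 TPM, and Tlcd2 (a membrane protein of the TLC family) 7.95-fold, from 18.1 ± 10.3 to 1.84 ± 2.32. Ociad2, Ccdc125 and Fam166a fell 4.32 to 5.66-fold.

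Some of the other genes among the 12 largest rises and 12 largest falls are uncertain in identity. Hist2h3c1 and Hist2h3b, near-identical histone H3 genes whose reads the authors' counting could split, rose 11.1-fold and 9.36-fold, to 235 ± 165 and 91.1 ± 63.5 TPM. Both were also called higher in the third 4C cohort than in the first, 2.4-fold and 2.62-fold, and against the third cohort their log2 changes to 8C were 2.20 and 1.85 in place of 3.47 and 3.23. Rn4.5s (a multicopy small RNA), Ctrcos and Rab26os (antisense RNAs) and Mir3473f (a microRNA locus) fell 4.28 to 8.36-fold. They were listed at 0 in 17, 14, 15 and 24 of 25 8C embryos. For Mir3473f the remaining embryo held 248 TPM, and neither it nor Rab26os was called without session F. The rest of the 12 largest rises were Tbx20 (a T-box factor) at 8.27-fold, Slc30a2 (a zinc transporter) at 7.34, Mid1 (a microtubule-binding ubiquitin ligase) at 6.51, Capn15 (an atypical calpain) at 6.48 and Plp2 (a membrane proteolipid) at 6.44. Plp2 reached 216 ± 86.5 TPM from 43.1 ± 27.4, and 23 of 25 8C embryos exceeded its 4C maximum.

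Of 57 tested oocyte transcripts, 17 fell, against 5.75% of all tested genes, and none rose. Their median log2 change was -0.58. Without embryo 23 there were 22 lower and the median was -0.84. Omt2a, an oocyte maturation gene, went from a median of 384 TPM (116 to 1792) to 123 (25.2 to 2990) and fell 3.06-fold (log2 -1.61 ± 0.31, adjusted p = 2.31e-05). Embryo 23 held its maximum. H1foo, the oocyte linker histone, had medians of 44.1 and 9.85 TPM and fell 2.81-fold (adjusted p = 0.0123), and Zar1, which binds maternal mRNA, had medians of 13 and 5.22 TPM and fell 2.87-fold. H1foo was not called without session A or F, nor Zar1 without session A or C, nor either against the second 4C cohort. Tcl1b3, which fell 2.97-fold, was not called without session C. Btg4 had medians of 37 and 12.1 TPM. It was not called with embryo 23 (log2 -0.85, adjusted p = 0.154) and was called without it (-1.17). Gdf9 and Zp3, an oocyte growth factor and a zona protein, had log2 changes of -0.76 and -0.29 that did not pass (adjusted p = 0.0923 and 0.539), and Bmp15 had one of 0.24 (adjusted p = 0.674).

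The Obox homeobox genes, made in the oocyte and the early embryo, had 3 of 7 tested members lower (Obox1, Obox2 and Obox5). Over all tested genes 5.75% were lower. Obox2 went from a median of 9.95 TPM to 1.48 and fell 3.45-fold, while embryo 23 stood at 1107. Obox1 was not called without session F or against the second or the third 4C cohort, nor Obox5 without session G or against the second. As close copies of each other, these genes, Tcl1b3 and the Tdpoz genes are uncertain in identity. Among genes of the 2-cell burst, a wave of transcription at genome activation, 5 of 24 tested rose, against 6.5% of all tested genes, and none fell. Without embryo 23 there were 6 that rose. Summed over the list, the median per embryo was 3218 TPM at 4C and 2922 at 8C. Tdpoz2 went from a median of 17.9 TPM (0 to 62.9) to 83.3 (0 to 348). Dux, the factor that starts this burst, was listed at 0 in 28 of 32 4C embryos and 8 of 25 8C embryos, with a median of 2.41 TPM at 8C. Dux was not called without session F. Tdpoz3 was not called without session B or G or against the third 4C cohort, nor Zfp809 without session B or F or against the second. Mean levels in 2-cell embryos at 28 h were 464 TPM for Tdpoz2, 661 for Tdpoz3, 9.01 for Dux and 7.63 for Zfp809. At 8C these means were 95.4, 12.3, 10.8 and 43.4 TPM. Zscan4c did not pass, at 2.2 ± 2.59 and 6.57 ± 24.6 TPM.

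Genes of the p53 response rose in part. Of 28 tested p53 targets and apoptosis genes, 6 rose and 1 fell, where 6.5% and 5.75% of all tested genes did. Bid (a BH3 protein) fell by 1.67 on the log2 scale, and all 6 that rose were p53 targets. Besides Perp these were Phlda3 (an inhibitor of AKT) at 5.31-fold, Ccng1 (cyclin G1) at 4.69-fold, Trp53inp1 at 3.27-fold, Cdkn1a (p21, the inhibitor of cyclin-dependent kinases) and Pmaip1 (the BH3 protein NOXA). Cdkn1a went from 134 ± 103 to 318 ± 191 TPM, and 22 of 25 8C embryos lay above the 4C median (2.39-fold, adjusted p = 0.000403). Cdkn1a was not called without session C. Of the heat shock genes, Hspa1a, Hspa1b, Hspb1 and Hsph1 rose. The first 2 of these are close copies, and Hspa1a, Hspa1b and Hspb1 were not called without session F or against the second 4C cohort, nor Hspb1 against the third. Ppp1r15a (GADD34, of the integrated stress response) fell 2.22-fold, but was not called without embryo 23 or against the second 4C cohort.

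Of the mitotic regulators, 3 of 15 fell. Aurkb (aurora kinase B) fell 2.1-fold, from 168 ± 47.4 to 86.9 ± 44.6 TPM (adjusted p = 4.53e-07). Plk1 (polo-like kinase 1) at 362 ± 78.7 and 187 ± 68 TPM and Cdc25c (an activator of CDK1) at 112 ± 39.2 and 55.2 ± 23.1 were called lower, but without embryo 23 their log2 changes were -0.96 and -0.99 and neither was called. Aurkb was not called without session C or G, nor Plk1 without session A, B, E or F. Of 32 tested cyclin and cell cycle genes 1 rose and 3 fell, where 6.5% and 5.75% of all tested genes did, and without embryo 23 the counts were 1 and 1. Ccnb1 was at medians of 2313 and 1751 TPM (log2 -0.33, adjusted p = 0.0205).

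In metabolism, 4 of 27 cholesterol genes rose, against 6.5% of all tested genes, and none fell. Without embryo 23 there were 5 that rose. Srebf2, which switches the pathway on, rose 2.7-fold from 2.12 ± 1.5 to 8.02 ± 4.97 TPM, and Stard4, a cholesterol carrier, and Pmvk, phosphomevalonate kinase, rose 3.96 and 2.59-fold. Stard4 was not called without session F, nor Pmvk against the second 4C cohort. Of 26 glucose genes, Slc2a1 (GLUT1), Hk2 (hexokinase 2) and Gapdh rose and Pfkl (liver phosphofructokinase) fell 2.43-fold. Over all tested genes 6.5% rose and 5.75% fell. Gapdh was not called without embryo 23 (log2 0.96) or without session A, D or F, or against the other 4C cohorts, nor Slc2a1 without session A or F.

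No gene was called among 81 ribosomal protein genes, 76 nuclear genes of oxidative phosphorylation and 32 proteasome genes, whose median log2 changes were 0.02, -0.12 and -0.14. None reached the required fold, and the smallest p of the lists were those of Rps2, at 1961 ± 267 and 2702 ± 469 TPM (log2 0.46, adjusted p = 7.45e-07), of Atp5g2 (log2 0.70, adjusted p = 7.58e-06) and of Psmd12 (log2 -0.44, adjusted p = 0.00157). Of 60 nucleolar genes 1 rose and 4 fell, where 6.5% and 5.75% of all tested genes did, and without embryo 23 the counts were 1 and 2. Heatr1, of the small subunit processome, rose 2.37-fold, while Nip7, Mphosph10, Gnl3 and Nob1, which act in ribosome assembly, fell. Gnl3 (log2 -0.91) and Nob1 were not called without embryo 23, nor Gnl3 without session F, nor Gnl3, Nip7 and Mphosph10 against the second or the third 4C cohort, nor Heatr1 against the third.

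Of 24 tested Polycomb genes 3 fell, against 5.75% of all tested genes, and none rose. Pcgf6, a subunit of Polycomb complex PRC1, fell 2.28-fold (log2 -1.19 ± 0.12, adjusted p = 1.54e-12) from a median of 230 TPM (152 to 359) to 108 (44.8 to 189), and 23 of 25 8C embryos lay below the 4C minimum, though it was not called against the third 4C cohort. Cbx8 and Phc2 were the others that fell. Cbx8 was not called without session A or F or against the second 4C cohort, nor Phc2 without session B, C or G. Tet2, which oxidizes 5-methylcytosine, rose from a median of 2.17 to 4.56 TPM. It was not called without session F or G or in a fit on session means. The other 14 tested genes of DNA methylation, Dnmt3b among them (25.6 ± 13.8 and 33.2 ± 14.8 TPM), were not called. Dppa3, which protects the maternal genome from demethylation, was among the most abundant at 7288 ± 1105 and 6719 ± 1483 TPM (adjusted p = 0.19). Of 11 tested imprinted genes, Kcnq1ot1 rose and Phlda2 fell, where 6.5% and 5.75% of all tested genes did. Kcnq1ot1 was not called without session F, nor Phlda2 without embryo 23, without session B, C, D, E or F, or against the second or the third 4C cohort. The X-linked Huwe1 rose 2.89-fold. Xist spread from 0 to 82.4 TPM at 4C and from 0 to 244 at 8C and did not pass (adjusted p = 0.922). The Y-linked Uba1y rose 2.38-fold but was not called without session F. Embryo sex was not in the fit, and its part in the values of Xist and Uba1y was not tested.

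**Figure D4:**
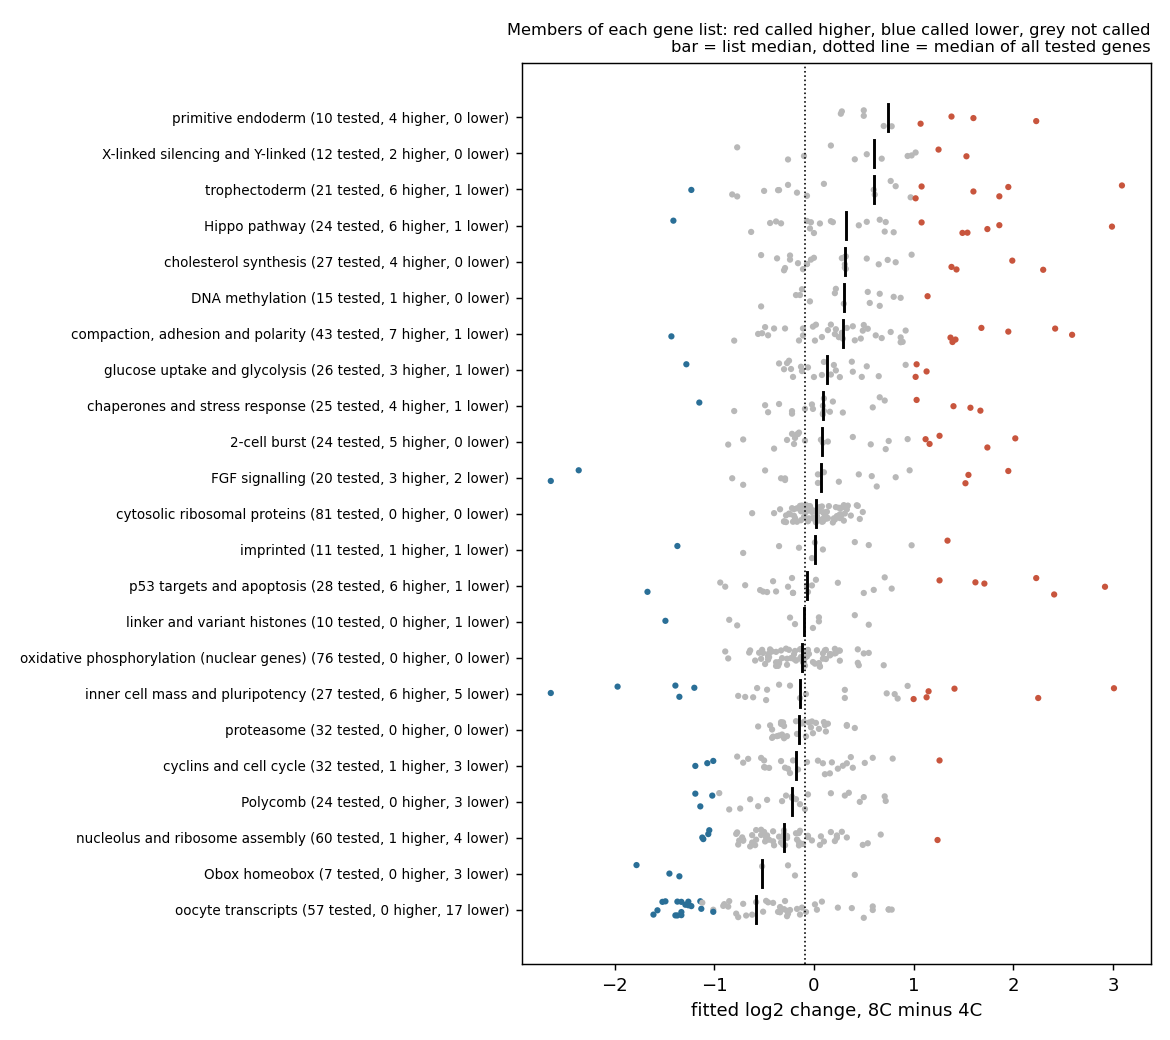
Fitted log2 change (x axis) of every tested member of 23 gene lists (1 line each, ordered by median), with members called higher in red, called lower in blue and not called in grey, list medians as bars and the median of all tested genes as a dotted line. The oocyte transcripts lie lowest with 17 of 57 called lower. The primitive endoderm list, with 10 of 21 members tested, lies highest with 4 called higher. The ribosomal, oxidative phosphorylation and proteasome lists hold no called member.

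Levels in the neighbouring stages came from other tables and sessions and were not tested. In the second morula cohort 1 embryo, kept here, had 4864 genes at 1 TPM or more, against a cohort median of 10728. In the 31 morulae of the first cohort, Krt8 had 348 TPM, Perp 138, Krt18 128 and Cdx2 54.5 on average, all above their 8C means, and the second cohort of 34 gave 607, 112, 249 and 94.7. All 6 trophectoderm genes that rose lay higher still in both morula cohorts. Pou5f1 reached 1052 and 1331 TPM. Other genes that rose at 8C were back near or below their 4C level. Vcl had 4.3 and 7.95 TPM in the morula cohorts, Ctnnd1 13 and 18.5, Mob1a 24.3 and 31.4, Capn15 4.01 and 5.73, and Hist2h3c1 15.5 and 31.6. Amot, at 6.6 and 8.73 TPM, lay between its 4C and 8C levels. By mean log2(TPM + 1), 153 of the 775 genes called higher lay above their 8C mean in both morula cohorts, 211 lay between both stages and 286 lay at or below their 4C mean. The 8C values chose these genes, so a return toward lower values is in part built into the choice. The median transcript length was 2021 bases for the 153 and 4593 for the 286, with GC contents of 53.5% and 53.7%.

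Among the 686 genes called lower, 218 lay still lower in both morula cohorts, 175 between and 162 at or above their 4C mean. The first group holds 16 of the 17 oocyte transcripts called lower, Gcm1 at 0.898 and 0.754 TPM and Fgf4 at 8.5 ± 9.51 and 14 ± 38.3 (SD). Nanog belongs to the last, at 1192 and 863 TPM in the morulae, as does Nip7 at 666 and 436. Of the 775 genes called higher, 450 stood higher in 2-cell embryos at 28 h than at 4C, and of the 686 called lower 268 did. The 4C values helped choose these genes, so this contrast is in part built into the choice. No share over all tested genes stands beside these counts. Among the 450 were Mid1, at 126 TPM at the 2-cell stage and 1.24 at 4C, and Mob1a, at 160 and 62.8. In 2-cell embryos at 28 h Gcm1 stood at 0.0221 TPM. It was highest in the 3 cohorts of 4C embryos, at 73 ± 36.6, 78.8 and 71.9 TPM. Obox5, by contrast, stood at 3115 TPM at the 2-cell stage, before 33.4 at 4C and 1.32 in the first morula cohort.

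**Figure D5:**
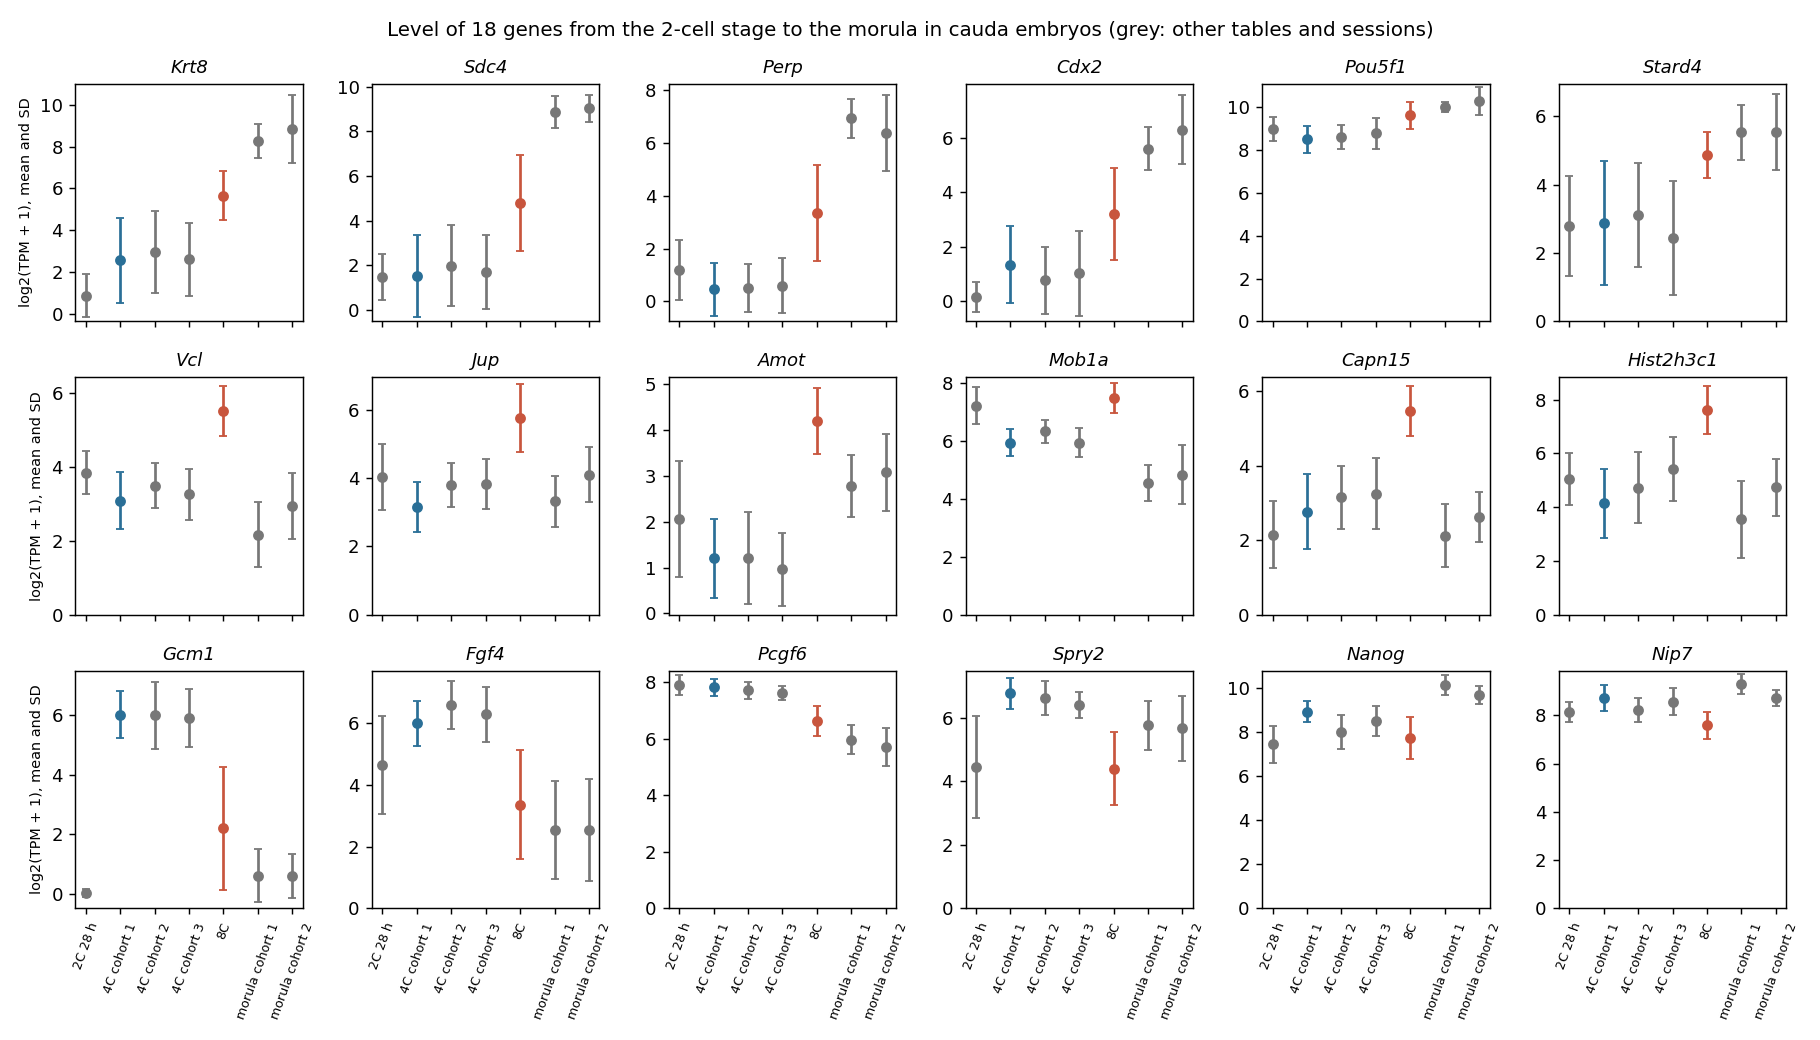
Mean log2(TPM + 1) with SD for 18 genes in 7 groups of cauda embryos from the 2-cell stage to the morula, with the compared 4C cohort in blue, the 8C embryos in red and groups of other tables in grey. Krt8, Sdc4, Perp and Cdx2 keep climbing to the morula, Vcl, Capn15 and Hist2h3c1 peak at 8C, and Gcm1 is highest at 4C. Mob1a is near its 8C level at the 2-cell stage and lower at 4C.

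Embryos of caput sperm (the upstream end of the epididymis), from the same 2 tables but with no library in common, gave a second view of the same stages, with 32 embryos at 4C and 28 at 8C. Of the same 11923 genes 576 were called higher (4.83%) and 968 lower (8.12%). Without 3 caput 8C embryos that stand apart the counts were 907 (7.61%) and 839 (7.04%). Of the 775 genes called higher in cauda embryos, 767 were also higher in caput embryos, 413 were called higher there and 1 was called lower. Of the 686 called lower, 678 were lower in caput embryos and 451 were called. All caput 4C embryos come from sessions A to D, those of the cauda 4C embryos. The caput 8C embryos include 11 from the 3 sessions of the cauda 8C embryos, so the 2 views share sessions and tables. Krt8 rose in caput embryos by 3.46 on the log2 scale, Vcl by 1.77, Amot by 2.84 and Tfcp2l1 by 3.34. Gcm1 fell by 3.7, Fgf4 by 1.82 and Spry2 by 2.41, and all of these were called there too. Other genes called in cauda embryos were not called in the fit with all caput embryos, which also gave the list counts below. A call in 1 sperm source alone is no test of a difference between sources. The genes not called include Cdkn1a, Trp53inp1, Pkp2, Pmvk, Heatr1, Hspb1, Kcnq1ot1, Uba1y, H1foo, Zar1, Tcl1b3, Obox1, Obox2, Plk1, Rn4.5s and Rab26os. Of 57 oocyte transcripts 9 were called lower and 1 higher in caput embryos, against 17 lower in cauda embryos. Of 27 pluripotency genes 2 were called higher and 8 lower, against 6 and 5. The difference between sperm sources in the change with stage was tested over 13255 genes. In that test 1 gene was called (0.00754%), which is not among those named in this paragraph, and 811 had an unadjusted p under 0.05 (6.12%).

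As a measure of how embryos of a stage vary, the median SD over 7509 genes of log2(TPM + 1) was 0.623 at 4C and 0.63 at 8C without embryo 23, and 0.605 and 0.617 within sessions. With embryo 23 the 8C value was 0.943. Markers of other cells that a tube could hold were low apart from Amhr2. Summed over 12 markers of sperm and spermatids each embryo held 0 to 22.8 TPM at 4C and 0 to 24.2 at 8C. Tnp1 and Tnp2 were at 0 in all, while Tssk6 reached 1 TPM in 23 of 32 4C and 17 of 25 8C embryos. The 11 epididymal markers summed to at most 11.3 and 9.24 TPM, with 5 at 0 in all embryos. The 6 blood markers summed to 0 to 25.4 and 0 to 48.7 TPM, most of it Cd68, a lysosomal protein of macrophages, which rose 2.17-fold. Cd68 was not called without session A, D, E or F or against either other 4C cohort, and Hbb-bs and Hbb-bt had means of 0.183 and 0.0809 TPM at 4C and were at 0 in every 8C embryo. The 16 cumulus and granulosa markers summed to 141 to 425 and 92.6 to 305 TPM, with 3 tested and none called. Nearly all of it was Amhr2, at 214 ± 56.7 and 188 ± 46.9 TPM. Has2, Fshr and Cyp19a1 had means of at most 0.244 TPM, and the highest mean of a marker other than Amhr2 was 1.55, of Star at 8C. Star reached 1 TPM in 5 of 32 4C and 10 of 25 8C embryos, Kitl in 6 and 7, and Tnfaip6 in 9 and 2.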

How the data were processed

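Single embryos were profiled by Smart-seq2 with Nextera libraries, per the labels' protocols. The submitters' processing notes name Bowtie and mm10, with versions not given in the sources used here. The deposited tables hold TPM made by the authors, 1 column per embryo, and 7 of 12 tables were used. From these, log2(TPM + 1) was computed and genes at 1 TPM or more in at least 13 embryos were tested with limma 3.58.1 in R 4.3.3 (duplicateCorrelation with session as a block, trend and robust eBayes), with Benjamini-Hochberg adjustment over all tested genes. Fold changes are on the log2(TPM + 1) scale, which understates those of low genes. Every adjusted p printed for a gene comes from this fit, and the difference between sperm sources came from its own limma fit over 13255 genes. Members and gene lists were chosen with earlier results of these data known, so the lists carry no test of their own.

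Named genes were the 12 largest rises and 12 largest falls among called genes that averaged 5 TPM or more at either stage (predicted genes, clones and pseudogenes left out), up to 4 called members of each list, the 2 members with the smallest p of a list with none, and a fixed set of stage genes. Other called members of short lists were named after their values were seen. The values of 1 gene are not reported here. Gene positions and promoters come from RefSeq (GRCm38.p6) and transcript lengths from GENCODE transcripts. Detected genes were compared by 100000 permutations. The fit was tested on simulated data. The session correlation was 0.0035.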

Additional observations from a re-analysis of the deposited data

Results flagged for a closer look

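The change with stage of C2cd4b (chromosome 9, 67716224 to 67760933, mm10) differed between sperm sources by 2.54 on the log2 scale in limma's test of the difference (adjusted p = 0.0119). In cauda embryos it had 2.71 ± 4.31 TPM (SD, n = 32) at 4C and 0.626 ± 1.28 (SD, n = 25) at 8C, a change of -0.70 that was not called. In caput embryos it had 22.5 ± 25.9 TPM (SD, n = 32, median 12.4) and 0.317 ± 0.793 (SD, n = 28), a change of -3.21 that was called. The mean at 4C was higher in caput embryos, while both were low at 8C, and the contrast at 4C alone was not tested. Levels also varied among cauda 4C embryos, with session means from 0.389 to 7.46 TPM. The other cauda 4C cohorts had 2.0 ± 2.66 and 9.26 ± 15.9 TPM (SD). With no session block the difference between sources in the change with stage was 2.51 (adjusted p = 0.0211). Without 4 8C embryos that stand apart it was 2.50 (adjusted p = 0.0365). With only the sessions that hold both sperm sources at 8C it was 2.57 (adjusted p = 0.126).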

How the results depend on the processing

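The numbers of genes called higher and lower, 775 and 686, depended most on the fold required. With no minimum fold they were 1753 and 2354, and with a fold of at least 4 they were 85 and 24. A pseudocount of 0.1 TPM gave 1150 lower, and the second 4C cohort as the 4C group gave 451 lower. Leaving out 1 session at a time gave 705 to 890 higher and 632 to 919 lower. A fit on session means, with 1 value per session, gave 765 higher and 782 lower. It ended the calls of Tet2, Gata3, Dux, Obox1, Slc2a1, Hspa1a, Kcnq1ot1, Uba1y, Gapdh and Gnl3. Scaling by median ratios moved the share of higher genes among those called from 53% to 61.7% and the median of all tested genes from -0.09 to -0.02, and ended the calls of Gnl3, Phc2, Aurkb and Plk1. The difference between sperm sources was called for 2 genes with no session block and for 0 with only the sessions that hold both sources at 8C. The embryo numbers in the titles pair nothing: over 25 shared numbers the correlation of deviations ran from -0.16 to 0.12, 2 of them over 0.1, and a fit with the number as a replicate block gave 819 higher and 689 lower. Of 84 named genes that were called, 45 kept the call under all 18 alternatives and none of the 114 tested reversed. The number of detected genes differed by 60 at a minimum of 5 TPM and by -87.4 at 0.1 TPM. Leaving out embryo 23 and the 3 caput embryos was chosen after seeing the data. The cause of these shifts was not tested, and with TPM alone the depth that limits low genes is unknown.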
